A study of Mus musculus with 16 samples.

Results

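The 5 genes described here are Esr1, Esr2 and Gper1, which encode the estrogen receptors, Pgr, which encodes the progesterone receptor, and Greb1, an estrogen target gene. They were taken by symbol from the 28683 genes listed in each of 16 Drop-seq libraries, in which RNA from single cells is captured at its 3′ end and each molecule carries a unique molecular identifier (UMI). Each library held dissociated hypothalamic cells, with those of the neighbouring preoptic area (together hypothalamus-POA), of 1 female mouse. Wild-type (WT) mice received corn oil (n = 3) or tamoxifen (n = 5), and mice with a conditional knockout of Esr1 (Esr1cKO) received oil (n = 4) or tamoxifen (n = 4). The study used these groups to ask which effects of tamoxifen on the hypothalamus need Esr1. All mice were of a mixed CD-1;129P2 background, were 8 to 10 weeks old at the start, received 28 daily subcutaneous injections and were killed 2 h after the last. The tamoxifen dose was 0.1 mg/kg. Esr1cKO mice carried the Esr1 floxed allele (Esr1 tm1Sakh) and the Nkx2-1-Cre transgene (Tg(Nkx2-1-Cre)2Sand), so that recombination is limited to cells with a history of Nkx2-1 expression and Esr1 stays intact in other cells. WT mice were littermates without Cre, and the sources used here do not state which Esr1 alleles they carried.

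Esr1 and Esr2 encode the nuclear receptors ERα and ERβ, which bind estradiol and then act on DNA as dimers or through other factors, while Gper1 encodes a membrane receptor coupled to G proteins. Pgr and Greb1 are textbook targets of ERα, and induction of Pgr by estradiol in hypothalamic neurons is part of how the brain controls ovulation and sexual receptivity. Tamoxifen binds ERα and ERβ and acts as an antagonist in some tissues and as an agonist in others.

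The libraries held between 2634253 and 8038158 UMIs, and 55675 cells passed the filters of more than 200 and fewer than 4000 genes with a mitochondrial share under 15%. Clusters were given names from marker lists, with the 5 genes left out of the variable genes used for clustering, and comprised 13572 astrocyte-like, 9226 oligodendrocyte-like, 9125 neuron-like, 7193 endothelial-like, 5398 microglia-like, 4444 polydendrocyte-like, 3183 ependymal-like, 2351 mural-like and 969 fibroblast-like cells. These names are used below without the suffix, and 214 cells stayed unnamed. Levels are UMIs of a gene scaled to the total UMIs of the cells summed in a library (CPM). They are not divided by gene length, because each molecule is counted once. Whether intronic reads were counted is not given in the sources used here, so levels may still depend on gene length. All 5 genes were sparse, with 2503 UMIs of Esr1, 586 of Esr2, 1144 of Gper1, 666 of Pgr and 487 of Greb1 in the kept cells. Of 2180 cells with an Esr1 UMI, 1953 held exactly 1. A pair of libraries, WT oil replicate 3 and Esr1cKO tamoxifen replicate 3, stood apart from the other 14 on the first principal component, at 57.1 and 55.5 against -15.8 to -4.29. Of the kept cells, 1717 shared their barcode sequence with a cell of another library, and 4 libraries (WT tamoxifen replicates 4 and 5, Esr1cKO oil replicate 4 and Esr1cKO tamoxifen replicate 4) shared 303 to 359 sequences per pair against at most 42 in any other pair. Within the pairs of these 4 libraries, the log UMI totals of shared barcodes correlated at r = 0.969 to 0.994. Genotype and treatment groups are therefore linked by these cells, and the source of the sharing was not tested.

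The targeted gene was examined first. Over all kept cells Esr1 stood at 90.8, 41.7 and 16.4 CPM in WT oil, at 69.2, 54.8, 54.6, 40.5 and 46.1 CPM in WT tamoxifen, at 33.2, 38.2, 36.3 and 34.8 CPM in Esr1cKO oil and at 44.1, 60.3, 10.1 and 54.3 CPM in Esr1cKO tamoxifen. The 4 groups overlapped, and the lowest library of each of WT oil and Esr1cKO tamoxifen was the one that stood apart. The floxed allele removes an internal exon, whereas the libraries count 3′ ends, so a transcript that lacks the exon can still be counted and these values do not check the deletion.

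Over all kept cells, those 2 libraries were below all 14 others for 4 of the 5 genes. Esr1 was at 16.4 and 10.1 CPM in them against 33.2 to 90.8 elsewhere, Esr2 at 1.32 and 0.551 against 6.49 to 17.4, Pgr at 2.11 and 2.20 against 7.48 to 21.1, and Greb1 at 5.28 and 2.39 against 5.31 to 13.4. Gper1 did not follow, with 23.2 and 24.8 CPM inside a range of 4.66 to 33.7. Nkx2-1, a hypothalamic transcription factor, was at 19.5 and 18.4 CPM, also within the 9.86 to 27.9 of the others. In neurons alone, WT oil replicate 3 was inside the range of the others for Esr1 (44.1 in 41.5 to 86.5 CPM). The same held for Greb1 (14.4 in 4.73 to 21.9 CPM). Esr1cKO tamoxifen replicate 3 was below both ranges, at 17.1 and 2.31 CPM. The part of these libraries in the results was measured by leaving them out, and calls that this changed are given with the gene.

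**Figure D1:**
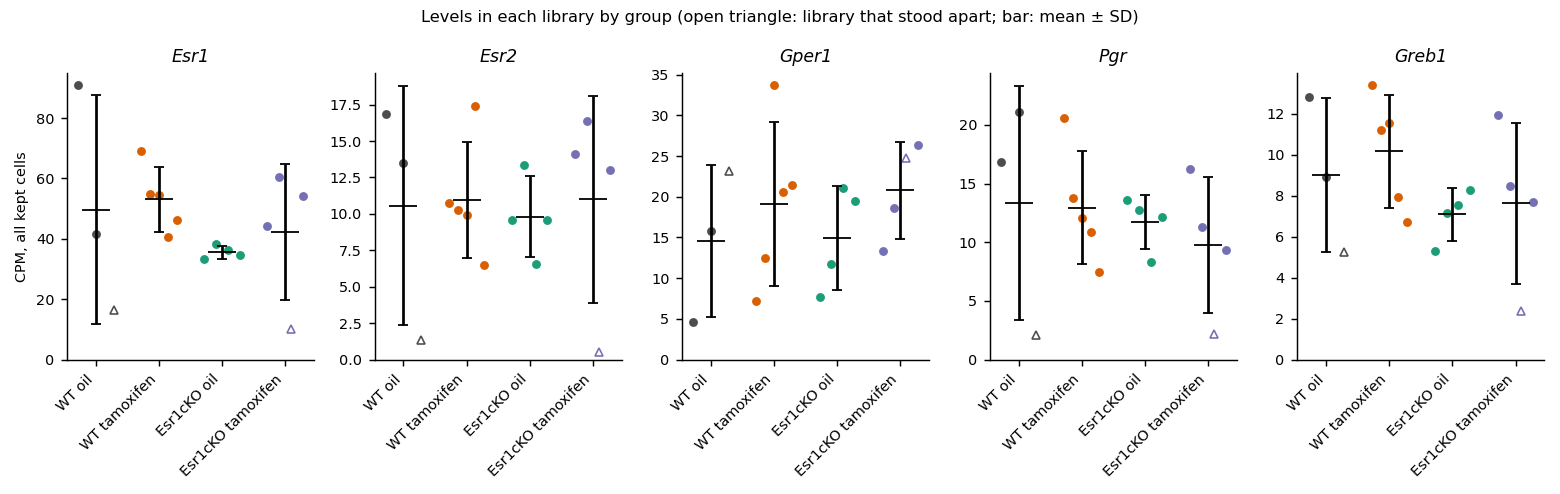
Level of each gene over all kept cells of a library, in CPM on the vertical axis, by genotype and treatment; each point is 1 library and the 2 libraries that stood apart are marked. The groups overlap for every gene, and the marked libraries lie lowest for Esr1, Esr2, Pgr and Greb1 but not for Gper1.

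The 5 genes had different homes. Neurons, which held 31.3% of all UMIs, held 39.2% of the Esr1 UMIs, 31.7% of the Esr2 UMIs, 60.5% of the Pgr UMIs and 40.5% of the Greb1 UMIs. Gper1 lay in vessels, with 53.2% of its UMIs in endothelial cells and 40.7% in mural cells, which held 13.9% and 2.46% of all UMIs. Each cell type was then compared with all other kept cells of the same libraries (edgeR's quasi-likelihood test with Benjamini-Hochberg adjustment over all genes tested). Of 45 possible tests, 28 passed the filter on low counts, and 8 were called higher and 10 lower. Over all genes and types the same test called 29.3% higher and 39.3% lower, so the number of calls is not itself a property of these genes.

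Esr1 was highest in microglia and next in neurons, and lower in the oligodendrocyte lineage and endothelium. In microglia, the resident macrophages of the brain, Esr1 stood at 187, 100.1 and 18.7 CPM in WT oil, at 163, 136, 166, 52.8 and 66.0 CPM in WT tamoxifen, at 58.2, 45.3, 69.1 and 72.6 CPM in Esr1cKO oil and at 118, 99.0, 37.5 and 89.7 CPM in Esr1cKO tamoxifen. Every one of these 16 values lay above the level in the other cells of its own library, and both libraries that stood apart were the lowest of their group. The mean was 92.5 ± 49.8 CPM in microglia against 41.9 ± 17.7 CPM in the rest (SD, n = 16). The fitted log2 fold change was 1.48 ± 0.12 (SE; adjusted p = 1.01e-14 by edgeR), where the median over all genes was -0.21. It includes edgeR's scaling of the sums and is larger than the ratio of these CPM means gives. Without the 2 libraries it was 1.58. The microglial cluster was split into microglia and perivascular macrophages. Microglia were at 100.1 ± 55.5 CPM with a log2 fold change of 1.65 ± 0.13 against the rest. Perivascular macrophages, on 24 Esr1 UMIs, were at 47.7 ± 49.4 CPM and -0.16 ± 0.32, which did not pass the test. The latter cluster was also led by the neutrophil markers S100a8 and S100a9, and it was not compared with microglia directly.

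In neurons Esr1 stood at 86.5, 49.0 and 44.1 CPM in WT oil, at 74.4, 63.4, 57.3, 59.5 and 74.3 CPM in WT tamoxifen, at 49.7, 59.0, 44.7 and 41.5 CPM in Esr1cKO oil and at 49.6, 70.9, 17.1 and 70.2 CPM in Esr1cKO tamoxifen. In 15 of 16 libraries neurons were above the remaining cells. The mean was 56.9 ± 16.8 against 40.4 ± 21.7 CPM (log2 fold change 0.53 ± 0.13, adjusted p = 4.5e-04 by edgeR). Polydendrocytes, the oligodendrocyte precursors, were lower (29.9 CPM, -0.73 ± 0.15, adjusted p = 2.9e-05), as were endothelial cells (31.3 CPM, -0.47 ± 0.14, adjusted p = 0.0040) and oligodendrocytes (27.6 CPM, -0.44 ± 0.12, adjusted p = 0.0019). Astrocytes (0.09), ependymal cells (-0.13), mural cells (-0.45) and fibroblasts (-0.37) did not pass the test. Along the order of mean levels, microglia were above neurons in 12 of 16 libraries and neurons above astrocytes in 14 of 16 (exact permutation test over the signs of paired differences, two-sided, adjusted p = 0.0375 and 0.0167 over the 40 neighbouring pairs of the 5 genes), and no later neighbours differed beyond their spread.

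The share of cells with an Esr1 UMI depends on depth. It was 8.01% of neurons (exact 95% interval 7.46% to 8.59%, median 1490 UMIs per cell), 6.15% of microglia (5.52% to 6.82%, median 615) and 2.28% of oligodendrocytes (median 753). When each cell was thinned to 500 UMIs and shallower cells were left out, the order turned to 4.35% of microglia, 2.44% of neurons, 2.29% of astrocytes and 1.25% of oligodendrocytes. Intervals cover counting error only. Barcodes with at most 200 genes, which hold free RNA and poor cells, carried Esr1 at 30.01 CPM pooled over the libraries. The levels of 27.6 to 31.5 CPM in oligodendrocytes, polydendrocytes, endothelial and mural cells are close to that value. The part of free RNA in these levels was not tested.

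Esr2 was highest in ependymal cells, which line the ventricles. There it stood at 44.8, 30.2 and 0 CPM in WT oil, at 8.98, 28.3, 10.02, 44.9 and 6.03 CPM in WT tamoxifen, at 35.7, 36.3, 16.7 and 19.0 CPM in Esr1cKO oil and at 50.6, 51.7, 0 and 34.0 CPM in Esr1cKO tamoxifen. Both zeros belong to the libraries that stood apart, where a count of 0 allows up to 4.35 and 5.78 CPM (3 counts per library), and the 4 groups overlapped. The mean was 26.1 ± 17.7 against 9.46 ± 4.17 CPM in the rest (n = 16, higher in 12 of 16 libraries, log2 fold change 1.40 ± 0.21, adjusted p = 6.1e-07 by edgeR). At finer resolution an ependymal cluster of 1904 cells, led by the transthyretin gene Ttr and by genes of motile cilia such as Ccdc153, Tmem212 and Dynlrb2, was at 30.4 ± 24.0 against 9.83 CPM (1.62 ± 0.25, 13 of 16 libraries) and tanycytes, the ependymal cells of the third ventricle floor, at 20.6 CPM (0.72, adjusted p = 0.0693).

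In other cell types Esr2 was close to its overall level. Oligodendrocytes were lower (5.17 CPM, -0.89 ± 0.24, adjusted p = 0.0013, lower in 16 of 16 libraries), although Esr2 no longer passed the filter there without WT oil replicate 1 or Esr1cKO tamoxifen replicate 1 or 2. Neurons, at 10.7 ± 4.99 CPM, did not differ detectably from the rest (0.02 ± 0.16). Mural cells were called higher on 25 UMIs (0.82 ± 0.34, adjusted p = 0.0309, 9 of 16 libraries), but the call was lost without WT oil replicate 2 (0.76), WT tamoxifen replicate 3 (0.58) or Esr1cKO tamoxifen replicate 4 (0.76), and with DESeq2 (0.44). An Esr2 UMI was seen in 3.05% of ependymal cells (2.48% to 3.71%, median 1116 UMIs per cell) and in 0.401% of oligodendrocytes (median 753), or in 1.16% and 0.244% after thinning. The pooled level in low barcodes was 7.50 CPM. No neighbouring pair in the order of Esr2 levels passed the test, the first being ependymal cells over fibroblasts (10 of 16 libraries, exact permutation test, adjusted p = 0.103).

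Gper1 was a vessel gene in these libraries. In mural cells, the smooth muscle cells and pericytes around vessels, it stood at 71.5, 306.5 and 425 CPM in WT oil, at 190.4, 221, 329, 248 and 363 CPM in WT tamoxifen, at 544, 328, 413 and 330.3 CPM in Esr1cKO oil and at 137, 243, 354 and 338 CPM in Esr1cKO tamoxifen. The 4 groups overlapped, and every library exceeded its remaining cells. The mean was 303 ± 116 against 10.95 ± 4.35 CPM (log2 fold change 4.72 ± 0.14, adjusted p = 5.69e-243 by edgeR, 16 of 16 libraries). In endothelial cells the lowest, median and highest libraries were at 37.3, 72.8 and 93.5 CPM, with a mean of 69.8 ± 15.6 against 9.52 ± 5.60 CPM (3.06 ± 0.17, adjusted p = 5.7e-17, 16 of 16). Mural cells exceeded endothelial cells in 16 of 16 libraries and endothelial cells exceeded fibroblasts in 15 of 16 (exact permutation test, adjusted p = 0.0012 and 0.0018).

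Elsewhere Gper1 was nearly absent. Only 12 UMIs lay in neurons, at 0.610 ± 0.613 CPM against 25.1 ± 10.1 in the rest (-5.25 ± 0.23, adjusted p = 7.4e-18, lower in 16 of 16 libraries), and ependymal cells were lower too (3.90 CPM, -2.19 ± 0.28, adjusted p = 2.1e-08). Fibroblasts were called lower on 9 UMIs (-1.28 ± 0.45, adjusted p = 0.0128), a call lost without WT oil replicate 2 (-1.05) and without the 2 libraries that stood apart (-1.12). A Gper1 UMI was found in 16.2% of mural cells (14.7% to 17.7%, median 527 UMIs per cell) and 6.27% of endothelial cells (median 731), against 0.132% of neurons at a median depth of 1490. After thinning the shares were 13.6%, 2.71% and 0.0274%. Low barcodes carried 13.8 CPM, above the level in neurons.

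The endothelial level of Gper1 moved with markers of mural cells. At finer resolution there were 3 endothelial clusters, a large cluster of 5247 cells with 118 Gper1 UMIs (22.4 ± 16.7 CPM), a smaller cluster of 1556 cells with 460 Gper1 UMIs (138.8 ± 30.7 CPM) and a cluster of 391 cells led by haemoglobin genes, with 29 Gper1 UMIs (56.7 ± 51.5 CPM). As a summed list, pericyte markers were at 1879.7 CPM in the first, 9936 CPM in the second and 3282 CPM in the third, with endothelial markers at 19409.5, 12803 and 11498 CPM, and the median depths were 594, 1472.5 and 1148 UMIs per cell. Clusters of smooth muscle cells and pericytes were at 287 ± 163 and 347 ± 173 CPM of Gper1. Among all 7193 endothelial cells, the 2656 with no UMI of the mural list held 24 Gper1 UMIs (10.2 ± 10.9 CPM, n = 16, range 0 to 28.4, median depth 489.5 UMIs), and the 4537 with at least 1 held 585 (84.7 ± 18.02 CPM, range 48.7 to 111, median depth 968). The ranges do not overlap, and the part of attached or captured mural cells in the endothelial level was not tested. Taken alone, the cluster of 5247 cells was higher than all other kept cells by 0.57 ± 0.20 on the log2 scale (adjusted p = 0.0112 by edgeR, 8 of 16 libraries).

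**Figure D2:**
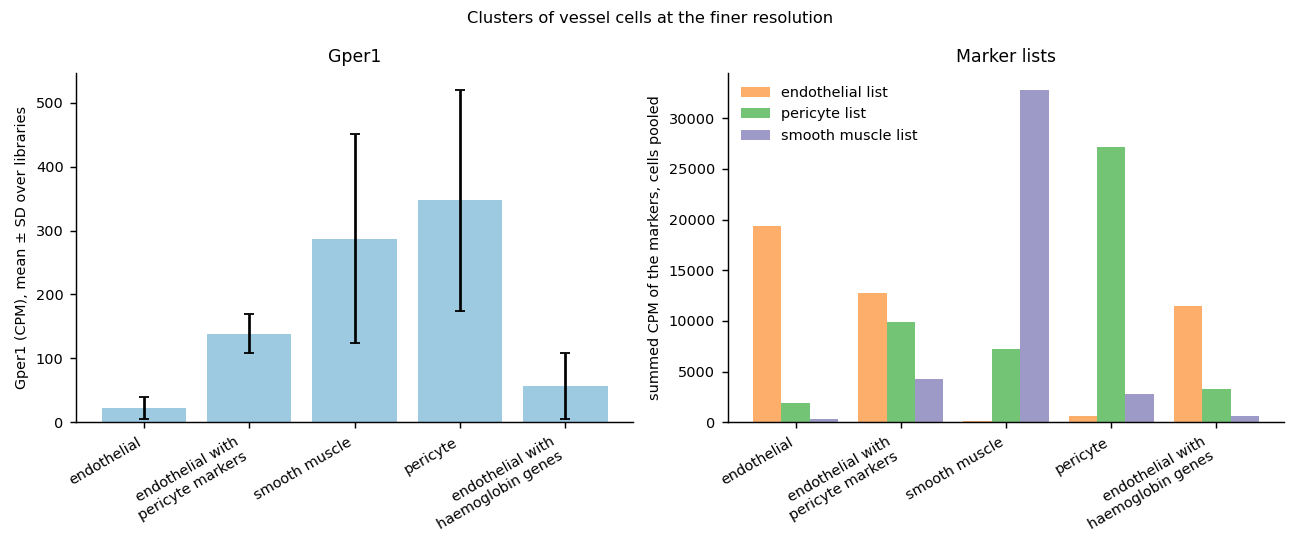
Left, Gper1 level in CPM (vertical axis) in 5 clusters of vessel cells, with bars for the mean and error bars for the SD over 16 libraries; right, summed CPM of the endothelial, pericyte and smooth muscle marker lists over the pooled cells of each cluster. Gper1 is at 22.4 CPM in the large endothelial cluster and at 138.8 CPM in the cluster of 1556 cells, where the pericyte list stands at 9936 CPM against 1879.7 CPM.

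Of the target genes, Pgr was concentrated in neurons. It stood there at 32.7, 55.0 and 7.18 CPM in WT oil, at 30.6, 17.97, 20.9, 22.5 and 10.3 CPM in WT tamoxifen, at 23.6, 36.4, 16.9 and 27.6 CPM in Esr1cKO oil and at 22.0, 14.2, 5.54 and 17.8 CPM in Esr1cKO tamoxifen. The 2 libraries that stood apart were the lowest of all 16, and the 4 groups overlapped. The mean was 22.6 ± 12.3 against 6.94 ± 3.72 CPM (log2 fold change 1.67 ± 0.20, adjusted p = 2.2e-08 by edgeR, 16 of 16 libraries). The highest value rested in part on 1 cell of WT oil replicate 2 with 18 Pgr UMIs, without which that library was at 39.8 CPM. Pgr was lower in ependymal cells (-1.33 ± 0.34, adjusted p = 0.0011), endothelial cells (-1.04 ± 0.24, adjusted p = 2.2e-04) and oligodendrocytes (-0.79 ± 0.21, adjusted p = 0.0011), and astrocytes, second in the order at 12.4 CPM, did not pass (0.27 ± 0.20). Neurons were above astrocytes in 13 of 16 libraries (exact permutation test, adjusted p = 0.0510). A Pgr UMI was found in 3.68% of neurons (3.31% to 4.09%) and 0.499% of oligodendrocytes, or 1.01% and 0.330% after thinning, and low barcodes carried 10.7 CPM.

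Greb1, which encodes a cofactor of ERα, was spread more evenly. In neurons it stood at 16.3, 10.3 and 14.4 CPM in WT oil, at 21.9, 14.2, 16.4, 11.2 and 9.41 CPM in WT tamoxifen, at 6.52, 7.53, 8.17 and 8.94 CPM in Esr1cKO oil and at 11.8, 4.73, 2.31 and 10.03 CPM in Esr1cKO tamoxifen. All 3 WT oil libraries lay above all 4 Esr1cKO oil libraries, and the tamoxifen groups overlapped. Such a separation of a pair of groups was seen in 3.14% of tests over all genes. It was lost in 2 of 27 ways of processing the data, and the fitted difference (-0.72 ± 0.44) was not called. Neurons were the only cell type in which Greb1 passed the filter on low counts. The mean over libraries was 10.9 ± 4.91 in neurons against 7.40 ± 2.81 CPM in other cells (log2 fold change 0.52 ± 0.17, adjusted p = 0.0071 by edgeR, 13 of 16 libraries). The excess was 0.91 in WT libraries alone and 0.06 in Esr1cKO libraries alone, where it did not pass, and the difference between these values was not tested on its own. Microglia were called higher for Greb1 only in edgeR without the 2 libraries that stood apart (0.76 ± 0.28, adjusted p = 0.0147, 38 UMIs), against 0.40 in all 16 libraries without the filter on low counts (adjusted p = 0.246). Endothelial cells were called lower in WT libraries alone (-0.82, adjusted p = 0.0303 by edgeR). Oligodendrocytes were called lower without the filter (-0.57, adjusted p = 0.0376 by edgeR). No neighbours in the order of Greb1 levels differed, from fibroblasts at 14.8 ± 17.0 CPM over neurons, microglia (9.42 CPM) and astrocytes (8.95 CPM) to oligodendrocytes at 4.88 CPM. Neurons with a Greb1 UMI made up 1.99% (1.72% to 2.30%), against 1.24% of fibroblasts and 0.444% of oligodendrocytes, and thinned shares were 0.657% in neurons and 0.703% in fibroblasts. Low barcodes carried 5.48 CPM.

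**Figure D3:**
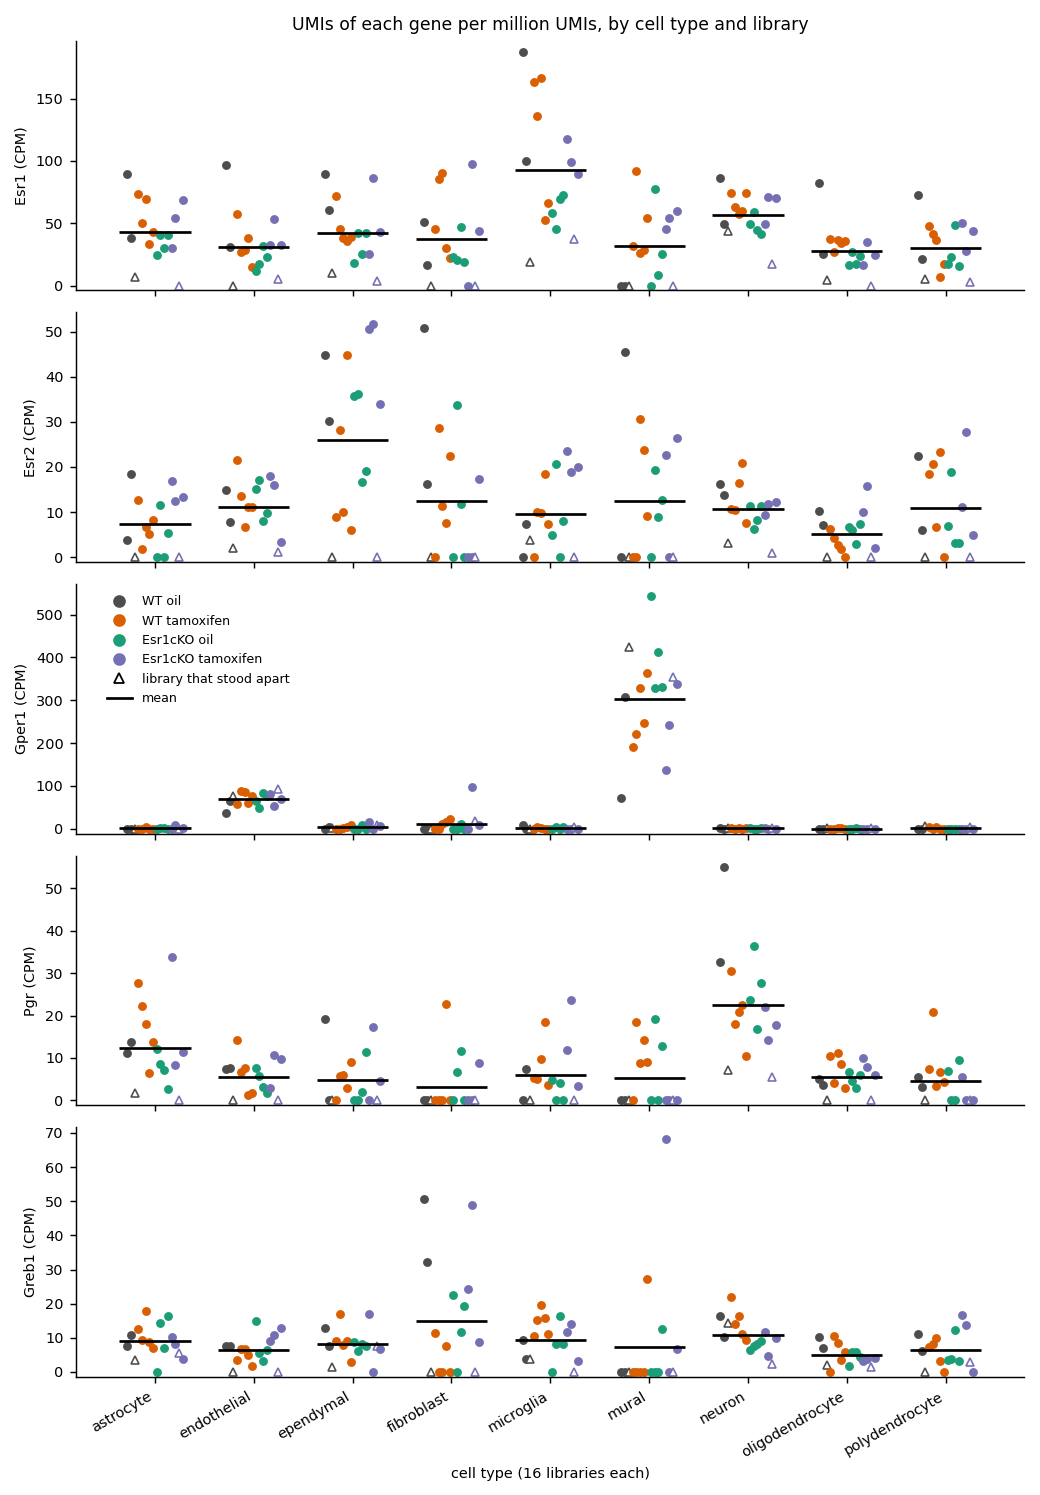
Level of each gene in the 9 named cell types, in CPM on the vertical axis, 1 point per library with the mean over 16 libraries. Esr1 is highest in microglia, Esr2 in ependymal cells, Gper1 in mural and then endothelial cells and Pgr in neurons, while the Greb1 points of most types overlap.

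The position of each gene bears on what its counts can hold. In GRCm38 (GENCODE vM21) Esr1 lies at chr10:4611593-5005614 (+), Esr2 at chr12:76120419-76177259 (-), Gper1 at chr5:139423151-139427800 (+), Pgr at chr9:8899833-8968611 (+) and Greb1 at chr12:16670615-16800886 (-), and introns make up 96.5%, 94.1%, 45.4%, 87.6% and 92.7% of these spans. Whether reads were counted by strand is not given in the sources used here, so a gene and an antisense neighbour may share reads. Gper1 is overlapped by the antisense gene 3110082I17Rik, which was at 34.2 CPM in mural, 24.7 CPM in endothelial and 44.2 CPM in ependymal cells and so did not follow the Gper1 order. The 3′ end of Esr1 faces that of Syne1 at 15303 bp. Syne1, which encodes a nuclear envelope protein, was at 32.5 CPM in microglia and 976 CPM in ependymal cells. Between these types alone, Esr1 was higher in microglia. The part of shared reads in any of these counts was not tested. Greb1 faces Ntsr2, an astrocyte gene at 1855 CPM in astrocytes and 27.9 CPM in neurons, at 10388 bp. Esr2 faces Syne2 at 9493 bp, which was at 98.1 CPM in ependymal cells and higher in mural (164 CPM) and endothelial cells (144 CPM), while Pgr is followed on the same strand at 3180 bp by Gm16485, which was at 10.7 ± 3.26 CPM in neurons.

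The promoters of the 2 target genes are shown because an estrogen response element is a pair of inverted half-sites, GGTCA and TGACC, spaced by 3 bases. The windows are the 300 bases around an annotated start in RefSeq (GRCm38.p6), 5′ to 3′ on the gene's strand, with any half-site in capitals, at chr9:8899583-8899882 (+) for Pgr and at chr12:16800837-16801136 (-) and chr12:16757190-16757489 (-) for the starts of Greb1.
Pgr: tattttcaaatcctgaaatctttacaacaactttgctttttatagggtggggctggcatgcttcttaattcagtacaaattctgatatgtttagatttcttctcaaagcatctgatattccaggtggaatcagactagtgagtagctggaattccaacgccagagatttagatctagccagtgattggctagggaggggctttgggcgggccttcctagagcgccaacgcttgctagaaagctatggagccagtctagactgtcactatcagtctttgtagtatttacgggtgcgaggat
Greb1, first start: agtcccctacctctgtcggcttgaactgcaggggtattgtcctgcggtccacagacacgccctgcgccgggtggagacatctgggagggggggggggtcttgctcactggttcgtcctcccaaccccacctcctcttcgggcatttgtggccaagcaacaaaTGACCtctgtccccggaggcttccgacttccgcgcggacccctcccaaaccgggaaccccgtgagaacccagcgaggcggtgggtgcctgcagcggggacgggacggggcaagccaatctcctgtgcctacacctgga
Greb1, second start: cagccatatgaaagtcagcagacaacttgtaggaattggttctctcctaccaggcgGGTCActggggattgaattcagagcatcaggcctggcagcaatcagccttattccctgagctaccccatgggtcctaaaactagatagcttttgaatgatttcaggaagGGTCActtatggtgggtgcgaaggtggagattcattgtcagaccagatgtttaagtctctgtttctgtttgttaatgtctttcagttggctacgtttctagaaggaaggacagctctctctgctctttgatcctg
The Pgr window holds no half-site, the first Greb1 window 1, which begins at -88 from the start, and the second 2. Among the other promoters, 1 of Esr2 holds 2 half-sites, 1 of Esr1 holds 1, and the second of Esr1 and that of Gper1 hold none. Half-sites are common, in 13299 of 32851 mouse promoter windows of this length (40.5%), whereas the full element, GGTCA and TGACC with any 3 bases between, is in 23 (0.07%) and in none of the 7 windows of these genes. A match here is a description of letters and not of binding.

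Within neurons, the level of Esr1 differed between clusters. The 9125 neurons formed 25 clusters, named by their leading gene, and 24 were tested against the other neurons. Esr1 passed the filter in 22, with 3 called higher, 7 lower and 12 neither, where 6.48% of all gene tests were called higher and 16.4% lower. Of the 982 Esr1 UMIs in neurons, the Tac2-led, Gal-led and Lrrtm4-led clusters, called higher, held 121, 175 and 110 in the libraries fitted. The Meis2-led and Pomc-led clusters, called lower, held 115 and 114. The highest level was in the Tac2-led cluster, whose leading genes Tac2, Pdyn and Tbx3 are known from the arcuate neurons that make kisspeptin, neurokinin B and dynorphin. It held 110 cells with a median of 4226 UMIs, of which 66 had an Esr1 UMI. In libraries with at least 3 such cells Esr1 stood at 492, 501 and 212 CPM in WT oil, at 657, 269 and 631 CPM in WT tamoxifen, at 117, 209.7, 90.4 and 517 CPM in Esr1cKO oil and at 215, 99.98 and 316 CPM in Esr1cKO tamoxifen. WT and Esr1cKO libraries overlapped. Over these 13 libraries the mean was 333 ± 202 against 47.6 CPM in other neurons (log2 fold change 2.53 ± 0.23, adjusted p = 1.6e-25 by edgeR, 13 of 13).

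Esr1 was also higher in the Gal-led cluster, which includes galanin, tyrosine hydroxylase and growth hormone-releasing hormone cells, at 90.1 ± 53.6 against 52.2 CPM (0.94 ± 0.18, adjusted p = 6.1e-05, 13 of 16 libraries). In Esr1cKO libraries alone that difference was 0.54 and did not pass. The Lrrtm4-led cluster of 998 cells, whose leading genes include synaptic adhesion and channel genes such as Lrrtm4 and Kcnb2, was at 108 ± 50.02 against 57.3 CPM (1.08 ± 0.20, adjusted p = 7.1e-07, 12 of 14). This cluster had a median of 788.5 UMIs, held no cell of the 2 libraries that stood apart and was at 0.53 without the filter on low counts and at 0.12 in cells with 3 or more UMIs of Lrrtm4, where the call was lost. The Moxd1-led cluster, with the interneuron factor Lhx6, was at 122 ± 79.0 against 52.7 CPM (0.81 ± 0.32, adjusted p = 0.0731) and did not pass. It was called with DESeq2 (1.17), in edgeR with size factors of DESeq2 (1.16) and in edgeR without Esr1cKO oil replicate 2 (0.93) or Esr1cKO tamoxifen replicate 4 (0.95). The median log2 fold change over all genes was -0.23 in the Tac2-led, 0.02 in the Gal-led, -0.10 in the Lrrtm4-led and -0.43 in the Moxd1-led cluster, and size factors of DESeq2 in place of TMM moved this median by -0.82 to 1.01 over the 24 clusters without changing the sign of a called value.

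Esr1 was lower in 7 clusters with different leading genes, of which Trh, Pomc and Vip encode peptide precursors. It was lower in the Ppp1r17-led (-1.69), Trh-led (-1.52), Vipr2-led (-1.26), Foxb1-led (-1.01), Meis2-led (-0.53) and Pomc-led (-0.40) clusters and, on 2 UMIs, in the Vip-led cluster (-2.25). The Pomc-led call, for the precursor of melanocortins, was lost in 10 and the Vip-led call in 8 of 16 fits that left out 1 library, with values of -0.45 to -0.35 and -3.09 to -2.07. Both calls were also lost without the 2 libraries that stood apart (-0.32 and -2.09), a fit in which the Ndnf-led and Slc6a3-led clusters were called lower on 0 and 1 Esr1 UMIs.

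**Figure D4:**
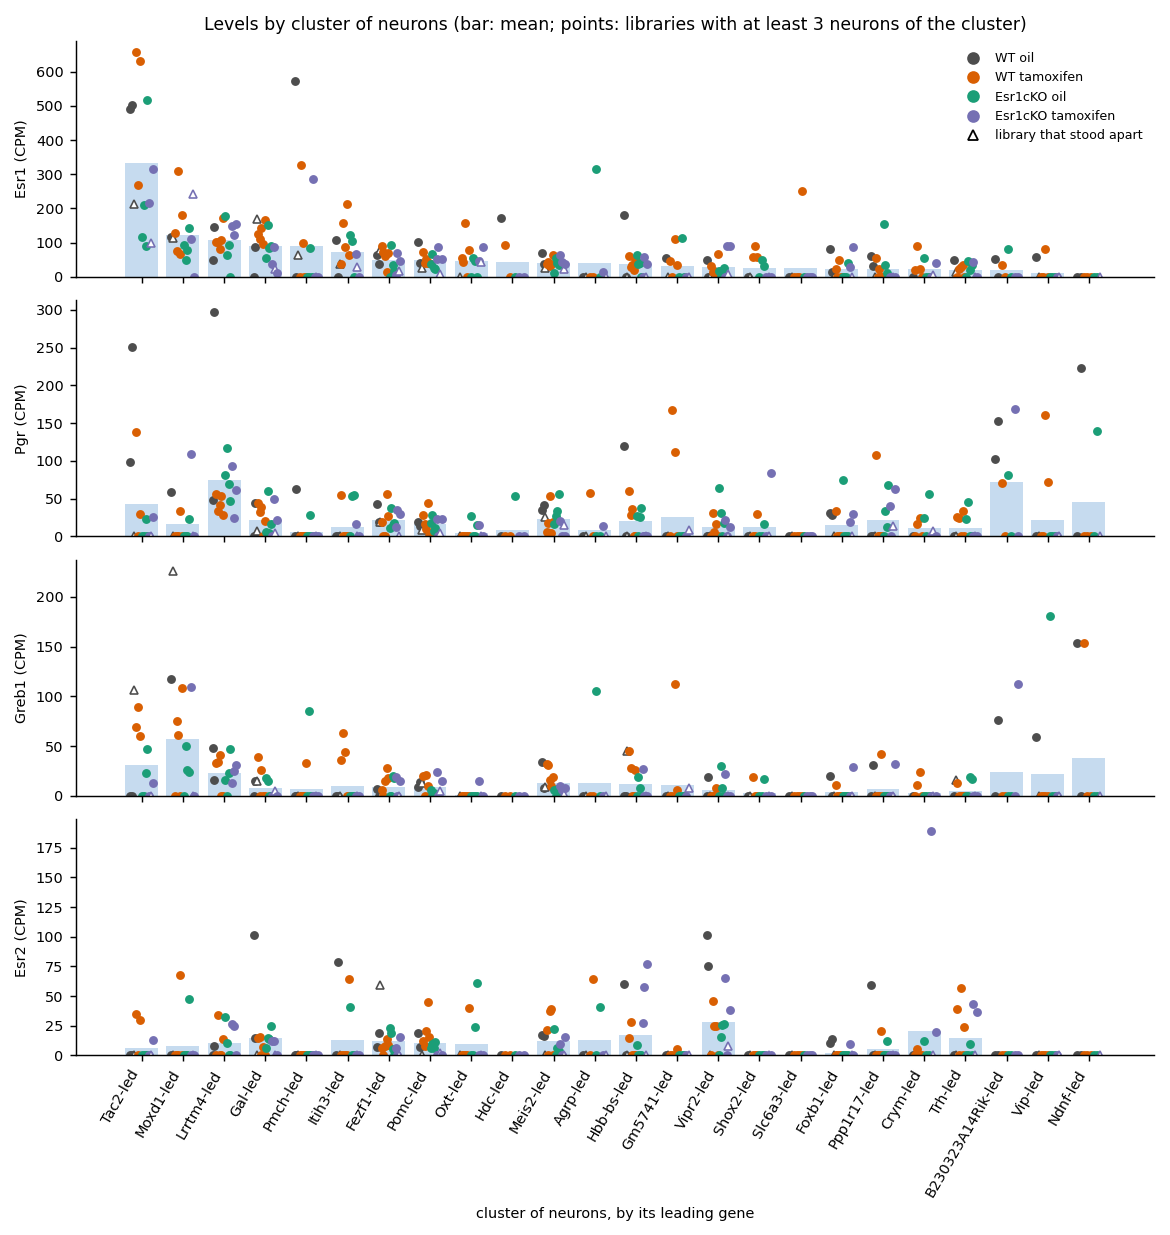
Levels of Esr1, Esr2, Pgr and Greb1 in the neuron clusters, in CPM on the vertical axis, with bars for the mean and 1 point per library that holds at least 3 cells of the cluster. The Tac2-led cluster stands above the others for Esr1, with points from 90.4 to 657 CPM, and the Lrrtm4-led cluster holds the highest single Pgr point, at 298 CPM in WT oil replicate 2.

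The other 4 genes did not pass the filter in any neuron cluster, so their levels there come from a fit without the filter. Pgr was higher in the Lrrtm4-led cluster, from 24.6 to 298 CPM in its 14 libraries and at 75.3 ± 69.0 against 20.4 CPM in other neurons (1.51 ± 0.23, adjusted p = 3.9e-10 by edgeR, 14 of 14, 91 UMIs). Of these UMIs, 18 lay in 1 cell of WT oil replicate 2, the highest library, and without that cell it was at 165 CPM and the mean at 65.8 ± 38.3 CPM. Greb1 was higher in the Moxd1-led cluster on 16 UMIs (56.9 ± 65.8 against 10.04 CPM, 1.90 ± 0.38, adjusted p = 9.3e-04, 9 of 14) and Esr2 in the Vipr2-led cluster, whose leading genes Vipr2, Nms and Prok2 are known from the suprachiasmatic clock, on 30 UMIs (28.2 ± 30.5 against 9.67 CPM, 1.16 ± 0.32, adjusted p = 0.0029, 11 of 16). In the Tac2-led cluster, where Esr1 was highest, Greb1 was at 0.72 and Pgr at -0.25 on the log2 scale (adjusted p = 0.465 and 0.852 by edgeR). The same fits called Pgr lower in the Oxt-led (-2.11, 3 UMIs), Vipr2-led (-1.04, 15 UMIs) and Slc6a3-led (-6.59, 0 UMIs) clusters. Greb1 was called lower in the Oxt-led (-2.69, 1 UMI) and Vipr2-led (-1.38, 6 UMIs) clusters. Esr2 was called lower in the Pmch-led (-5.60) and Shox2-led (-5.69) clusters, on 0 UMIs in each. Gper1 had 12 UMIs in all neurons together.

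Cells with UMIs of more than 1 of these genes were few. Of 731 neurons with an Esr1 UMI, 67 also had one of Pgr, which is 9.17% of the Esr1 neurons and 19.9% of the 336 Pgr neurons. Greb1 was shared in 46 neurons (6.29% of the Esr1 neurons and 25.3% of the Greb1 neurons) and Esr2 in 19 (2.599% and 10.9%). Gper1 was shared in 0 of 731, which allows a share of up to 0.410% of cells with a detected UMI and sets no limit on cells that express Gper1. Deeper cells show more UMIs of every gene, so these shares carry depth as well as co-expression.

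When the UMIs of neurons with and without an Esr1 UMI were summed per library and compared, 2.58% of 6319 genes were higher and 2.14% lower in the former by edgeR, and none of the other 4 genes passed the filter. Without the filter Pgr was at 36.9 against 19.7 CPM (0.79 ± 0.20, adjusted p = 0.0081, 11 of 16 libraries), Greb1 at 18.7 against 9.33 CPM (0.87 ± 0.28, adjusted p = 0.072, 13 of 16), and Esr2 had a log2 fold change of -0.70 (adjusted p = 0.454). From a list of 30 estrogen target genes 13 were tested, 4 were higher and 0 lower, with a median of 0.14 against 0.02 over all genes. These were Tac2, which encodes neurokinin B (3.49 ± 0.25, 15 of 16 libraries), the prolactin receptor gene Prlr (1.36 ± 0.11, 261 against 99.8 CPM, 16 of 16), the transcriptional coregulator Cited1 (0.96 ± 0.19, 11 of 16) and galanin (Gal, 0.54 ± 0.15, 11 of 16). Cited1, Prlr and Tac2 were also higher in the Tac2-led cluster, and Cited1, Gal and Prlr in the Gal-led cluster. Esr1 itself was called higher in both clusters, and their part in the 4 calls was not tested. From a list of 36 receptor partners, comprising coregulators, chaperones, related receptors and steroid enzymes, 20 were tested and only the chaperone Hsp90ab1 was higher (0.18 ± 0.05, 16 of 16), with a median of 0.10.

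In neurons as a whole the receptor partners were mixed. Of 31 tested, 7 were higher and 17 lower than in other cells, with a median of -0.25 against -0.01 over all genes, of which 40.4% were higher and 41.3% lower in the same fit. The chaperones Hsp90aa1, Hsp90ab1 and Hsp90b1 and the cochaperones Fkbp4, Ppid and Stub1 (1.72) were among those higher. The cochaperones Fkbp5 and Ptges3 of the same list were not called in either direction. Caveolin 1 (Cav1, -6.00) had the largest difference. Of the estrogen target genes 23 were tested, 11 higher and 12 lower, shares near those of all genes, with a median of -0.53, including Tac2 at 6.41 and Cxcl12, a chemokine gene of vessels, at -5.07.

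For the effects of treatment and genotype, each cell type and all kept cells were fitted with the 4 groups. Tamoxifen was compared with oil in each genotype, Esr1cKO with WT under each treatment, and the difference of the tamoxifen effects between genotypes was tested as an interaction. Of 250 possible tests of the 5 genes, 95 passed the filter and 0 were called (edgeR's quasi-likelihood test, adjusted over all genes; smallest adjusted p = 0.901), and DESeq2 called 0 as well. Over all genes 0.000245% of 407460 tests were called. Log2 fold changes of the 5 genes ran from -1.09 to 0.90 with a median SE of 0.58, so a change of about that size could not be told from the spread between libraries. With the adjustment over all genes, larger changes could also go uncalled. An unadjusted p under 0.05 was reached by 1 of the 95 tests (1.05%), against 3.87% of the tests over all genes.

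That test was Greb1 in neurons, lower in Esr1cKO than in WT under tamoxifen at a log2 fold change of -1.03 ± 0.39 (adjusted p = 0.9998 by edgeR). Under oil it was -0.72 ± 0.44, and this was the only 1 of 76 member tests between a pair of groups in which all libraries of one group lay above all of the other, an event seen in 3.14% of such tests over all genes. These oil groups overlapped in 2 of the 27 ways of processing the data, with shared barcodes removed and with mitochondrial shares under 5%. Over all 27 the difference under tamoxifen ran from -1.45 to -0.58, and without the 2 libraries that stood apart it was -0.58 and no longer reached an unadjusted p of 0.05, as in 4 of the 27. The oil difference ran from -0.96 to -0.62. The lowest adjusted p over all of these was 0.529. In all kept cells Greb1 averaged 8.997 ± 3.77 CPM in WT oil, 10.2 ± 2.76 CPM in WT tamoxifen, 7.09 ± 1.28 CPM in Esr1cKO oil and 7.62 ± 3.95 CPM in Esr1cKO tamoxifen.

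Esr1 had a lower fitted level in Esr1cKO than in WT in 8 of 8 cell groups tested under oil (median -0.37) and in 8 of 8 under tamoxifen (median -0.40), none of which passed. The cell groups of a library share RNA, and all kept cells are among the 8, so these are not 8 independent comparisons. Over all kept cells, Esr1cKO tamoxifen replicate 3, which stood apart, was at 10.1 CPM. The other libraries of its group, at 44.1, 60.3 and 54.3 CPM, lay within the 40.5 to 69.2 CPM of WT tamoxifen. WT oil replicate 3, which also stood apart, was at 16.4 CPM. In neurons the values were -0.22 ± 0.35 and -0.42 ± 0.31, and in microglia, which do not arise from Nkx2-1 cells, -0.53 and -0.43. Pgr in neurons was lower under tamoxifen than oil by fitted values of -0.61 ± 0.48 in WT and -0.86 ± 0.50 in Esr1cKO, neither of which passed in edgeR. Gper1 in mural cells differed by 0.25 ± 0.34 between genotypes under oil and by 0.03 ± 0.28 under tamoxifen. The receptor partners gave 232 and the target genes 119 tests per contrast, with 0 called. Among them Tac2 in neurons was at 2.47 ± 0.64 in Esr1cKO against WT under oil (adjusted p = 0.996) and at 2.32 ± 0.51 under tamoxifen (adjusted p = 0.427).

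Because Cre follows Nkx2-1, neurons with an Nkx2-1 UMI were compared between genotypes. There were 243 such neurons in Esr1cKO mice with 57 Esr1 UMIs and 230 in WT mice with 74. The lowest, median and highest libraries were at 30.03, 84.8 and 131 CPM in Esr1cKO (n = 8) and at 27.9, 82.2 and 216 CPM in WT (n = 8). The genotypes overlapped over most of their range, and the means of 80.9 ± 35.9 and 94.6 ± 65.4 CPM did not differ detectably (difference -13.7 CPM, exact permutation test, two-sided, p = 0.623, adjusted p = 0.886 over 3 comparisons). Within oil the difference was -6.13 CPM (n = 4 and 3, exact permutation test, p = 0.886). Within tamoxifen it was -11.8 CPM (n = 4 and 5, exact permutation test, p = 0.810). Groups of this size leave the test able to detect only large differences. Neurons without an Nkx2-1 UMI were at 47.9 ± 16.9 CPM in Esr1cKO and 60.8 ± 16.8 CPM in WT. In the Tac2-led cluster, where 30.9% of cells had an Nkx2-1 UMI, Esr1 averaged 402 ± 164 CPM in WT oil (n = 3), 519 ± 217 CPM in WT tamoxifen (n = 3), 234 ± 196 CPM in Esr1cKO oil (n = 4) and 211 ± 108 CPM in Esr1cKO tamoxifen (n = 3). These groups overlapped and were not tested. An Nkx2-1 UMI marks current expression, not the history that Cre needs, and the Esr1 count includes transcripts without the floxed exon.

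**Figure D5:**
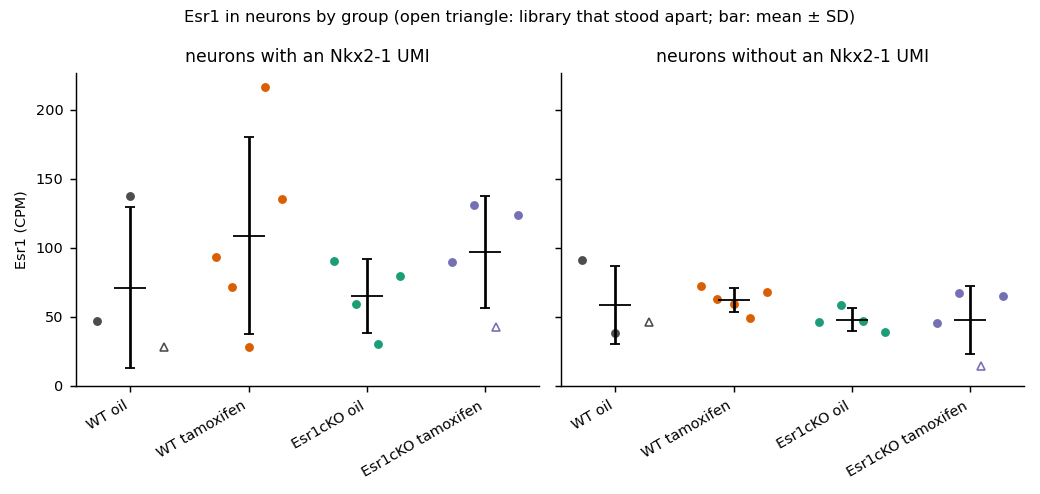
Esr1 level in CPM in neurons with and without an Nkx2-1 UMI, by genotype and treatment; each point is 1 library. The 2 genotypes overlap in both kinds of neuron. In those with an Nkx2-1 UMI, points run from 30.03 to 131 CPM in Esr1cKO and from 27.9 to 216 CPM in WT.

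To see which genes followed each of the 5 across cell groups, levels in 33 cell groups were correlated as log2(CPM + 10) over 12394 genes. Gper1 was most like Aspn, P2ry14 and Gm13861 (r = 0.98 each), of which P2ry14, a purinergic receptor gene, was at 360 CPM in mural and 91.0 CPM in endothelial cells. Pgr was most like Cntnap5c (0.84), Nrg3 (0.82) and Kcnq5 (0.82), of which Nrg3 encodes a neuregulin and Kcnq5 a potassium channel. Esr2 was most like Spice1 (0.78), Rfx2 (0.75), which encodes a ciliogenesis factor, and 2310039H08Rik (0.74), all highest in ependymal cells. Esr1 was followed less closely, by Kcnk12 (0.68), Prlr (0.62) and AA415398 (0.58), and Greb1 by Wscd2 (0.70), Mcat (0.69) and Fgf2 (0.69). The 33 groups share libraries and depth, and these r values are descriptions.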

How the data were processed

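The authors deposited, for each of 16 Drop-seq libraries (1 mouse each), a matrix of whole-number UMI counts per gene and cell barcode. Per the labels, the processing named mm10 and STAR 2.6, and the counting program, annotation and use of strand are not given in the sources used here. Barcodes with under 20 genes were absent, or under 100 in the 2 libraries that stood apart.

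Kept cells had over 200 but below 4000 genes, with less than 15% mitochondrial UMIs, which left 48.9% to 76.8% of the UMIs of a library at a median of 563 to 819 UMIs per cell. Depth therefore limits all 5 genes, and intervals cover counting error only. Cells were aligned across the 4 groups and clustered with Seurat 5.3.0 (2000 variable genes, 500 for neurons, without the 5 genes, of which Gper1 and Pgr had been among them; 20 principal components; resolutions of 0.05, 0.5 and 0.7) and named from marker lists. A neuron cluster carries its leading gene. Scrublet marked 476 doublets (0.85%), removed only in an alternative. Sums of the counts over each type's cells in a library were tested with edgeR 4.0.16 (TMM, filterByExpr, quasi-likelihood, R 4.3.3), with library as a block where cell groups of a library were compared and with the 4 groups as terms for genotype and treatment. Sums of fewer than 10 cells of a type, or 3 of a neuron cluster, were left out. The threshold was an adjusted p of 0.05. Single values were compared by exact permutation tests in Python 3.11.15 with NumPy 2.4.6. The permutation p-values measure the spread of a gene between mice. Those of edgeR rest on a spread estimated in part or wholly from other genes of similar level. They need not measure a gene's own spread between mice, which the printed SD gives. The scripts were tested on simulated data.

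Alternatives were DESeq2 1.42.0 or its size factors, no filter, stricter cell filters, doublets removed, subsets of libraries, each library left out and, chosen after seeing the data, removal of shared barcodes. Genes named beside the 5 are the neighbours in the annotation, the 3 most alike in pattern and list members past the threshold or with the largest differences. The 5 genes and the lists were chosen with earlier results of these data known. RefSeq promoters were matched by symbol for 5 of 5 genes.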

Additional observations from a re-analysis of the deposited data

How the results depend on the processing

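Called differences by cell type numbered 8 higher and 10 lower. The higher calls were 4 with mitochondrial shares under 5%. The lower calls were 17 without the filter on low counts, 6 in WT libraries alone, 3 in oil libraries alone, 5 with more than 500 genes per cell and 3 with mitochondrial shares under 5%, and the stricter cell filters lost calls because fewer sums passed the filter on low counts. Leaving out 1 library gave 7 to 8 higher and 9 to 11 lower. In neuron clusters the 3 higher calls became 6 without the filter, and the 7 lower became 19 without the filter, 4 in WT alone, 0 in Esr1cKO alone and 3 in cells whose leading gene had 3 UMIs or more (3 to 4 and 5 to 8 with 1 library left out). In neurons with an Esr1 UMI, the other genes had 0 calls higher and 1 without the filter. Thinning to 500 UMIs moved the shares of cells in the highest type to 4.35% for Esr1, 1.16% for Esr2, 13.6% for Gper1 and 1.01% for Pgr. Neighbours in the order of types that differed numbered 4, or 2 to 5 with 1 library left out. Of the 15 most alike genes, 4 stayed with a pseudocount of 1. Esr1 in neurons with an Nkx2-1 UMI differed between genotypes by -23.2 to 3.67 CPM with 1 library left out, reversed at 3.67 without WT tamoxifen replicate 4. For single genes 58 values lost their call, 664 kept call and direction, and 0 reversed. The cause of these losses was not tested.

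The labels do not tie libraries to days, so sets of 4 successive library numbers were used as a replicate block. Libraries of such a set of 4 correlated at -0.33 to 0.93, with medians of 0.34, 0.20, 0.04 and 0.23 in the 4 sets, and other pairs at -0.87 to 0.66, with a median of -0.10. The 4 libraries that share most barcodes are one of these sets. The numbers were not taken to pair the libraries, since not every pair correlated, and the block gave 0 calls for genotype or treatment, as did every other alternative. Size factors of DESeq2 moved the median of all genes by -0.34 to -0.03 by cell type. Removing shared barcodes kept 18 of 18 calls by cell type.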
